A study of Homo sapiens with 10 samples.

Results

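The interferon response genes described here are IRF1, IRF7 and STAT2, which encode regulators of the response, and IFIT1, IFIT2, IFIT3, IFIT5, ISG15 and MX1, which encode its antiviral effectors. Their data are counts of ZEB1 CUT&RUN reads or fragments at 39 of the 52981 consensus sites of the series, chosen because the midpoint of the site lay in one of the 9 genes or within 20 kb of either end. Gene positions came from RefSeq on GRCh38. ZEB1 is a zinc finger repressor known for driving the epithelial-mesenchymal transition, and CUT&RUN uses an antibody to bring a nuclease to the DNA that a protein occupies. The cells, named MDA in the labels, were a human line of breast cancer without estrogen receptor, progesterone receptor or HER2. They were cultured without drug, or with eribulin, a microtubule inhibitor, at 300 nM for 24, 48 or 72 h, with 2 ZEB1 libraries in each of these 4 conditions. The labels name the cells of every treated library MDA_ERI and those of the untreated libraries MDA_Parental, and give no culture time for untreated cells, so exposure, time in culture and any difference between these cells cannot be told apart. A binding assay holds no expression values against which the cell line could be checked, and the 2 IgG libraries of untreated cells were not analysed here.

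Type I interferon binds a cell surface receptor whose JAK family kinases phosphorylate STAT2. STAT2 acts with IRF9 in a complex that enters the nucleus and binds interferon-stimulated response elements (ISREs) in the promoters of the effector genes. IRF1 and IRF7 bind closely related elements, and IRF7 is induced by interferon and feeds back on interferon production. The IFIT proteins bind RNA and limit its translation, ISG15 is a ubiquitin-like protein that is conjugated to other proteins, and MX1 is a dynamin-like GTPase that blocks viruses. In tumour cells this programme is known to be switched on by DNA in the cytosol as well as by infection. ZEB1 signal at a gene shows where the protein was, not whether the gene was transcribed.

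Promoter windows of 300 bases, from 250 before to 50 after a RefSeq start, were at hand for 7 of the genes in 10 windows (RefSeq, GRCh38.p14), and none were listed for IFIT2 and IRF7. ZEB1 sites overlapped 5 of them, at STAT2, IRF1, ISG15 and both of the upstream MX1 windows. These are shown with an IFIT3 window that no site overlapped, although a site that gained signal at every time lay 562 bases before it. They were searched on both strands for the E-box CACCTG (reverse complement CAGGTG), a sequence that ZEB1 binds, and for an ISRE core of GAAA, any 2 bases and GAAA again (TTTC, any 2 bases and TTTC on the other strand). Capitals mark the matches in the windows, each written 5′ to 3′ on the strand of its gene.

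STAT2, chr12:56360058-56360357, minus strand: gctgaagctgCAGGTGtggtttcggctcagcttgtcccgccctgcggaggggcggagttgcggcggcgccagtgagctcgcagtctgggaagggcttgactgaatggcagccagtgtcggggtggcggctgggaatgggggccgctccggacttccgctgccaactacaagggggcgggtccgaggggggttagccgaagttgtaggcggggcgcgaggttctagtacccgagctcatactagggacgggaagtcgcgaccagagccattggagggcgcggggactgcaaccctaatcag
IRF1, chr5:132490724-132491023, minus strand: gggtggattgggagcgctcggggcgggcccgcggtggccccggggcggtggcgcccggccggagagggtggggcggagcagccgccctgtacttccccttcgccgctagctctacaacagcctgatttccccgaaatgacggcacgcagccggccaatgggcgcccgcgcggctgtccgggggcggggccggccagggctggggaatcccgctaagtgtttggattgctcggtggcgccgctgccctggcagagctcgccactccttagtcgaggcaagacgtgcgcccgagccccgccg
ISG15, chr1:1013247-1013546, plus strand: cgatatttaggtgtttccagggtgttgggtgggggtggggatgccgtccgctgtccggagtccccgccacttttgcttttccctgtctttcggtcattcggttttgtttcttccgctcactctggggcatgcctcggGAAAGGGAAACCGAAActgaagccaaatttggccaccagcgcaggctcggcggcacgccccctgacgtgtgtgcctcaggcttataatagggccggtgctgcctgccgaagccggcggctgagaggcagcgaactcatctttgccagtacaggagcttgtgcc
MX1, chr21:41420308-41420607, plus strand: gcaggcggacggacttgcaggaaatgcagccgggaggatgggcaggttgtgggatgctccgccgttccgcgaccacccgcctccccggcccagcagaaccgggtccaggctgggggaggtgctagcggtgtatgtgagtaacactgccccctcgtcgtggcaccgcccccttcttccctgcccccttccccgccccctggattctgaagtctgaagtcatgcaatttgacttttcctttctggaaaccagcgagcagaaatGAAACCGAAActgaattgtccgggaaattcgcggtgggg
MX1, chr21:41425989-41426288, plus strand: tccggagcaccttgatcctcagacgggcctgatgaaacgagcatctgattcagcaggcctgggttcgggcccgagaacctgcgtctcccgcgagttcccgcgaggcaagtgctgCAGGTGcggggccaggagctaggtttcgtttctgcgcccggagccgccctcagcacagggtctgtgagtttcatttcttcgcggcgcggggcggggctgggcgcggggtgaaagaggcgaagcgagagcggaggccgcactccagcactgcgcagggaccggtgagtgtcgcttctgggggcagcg
IFIT3, chr10:89327747-89328046, plus strand: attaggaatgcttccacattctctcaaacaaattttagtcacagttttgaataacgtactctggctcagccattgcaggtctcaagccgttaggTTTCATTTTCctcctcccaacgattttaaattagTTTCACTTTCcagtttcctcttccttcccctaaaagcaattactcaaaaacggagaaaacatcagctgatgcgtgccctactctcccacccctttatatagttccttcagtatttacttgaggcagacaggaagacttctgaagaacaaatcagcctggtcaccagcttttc

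The E-box stood in 2 of the 10 windows, those of STAT2 and the downstream of the MX1 pair, and in each the match lay inside the ZEB1 site. Of all 35116 promoter windows of the same length, 20.59% held it. The ISRE core stood in 7 of the 10 windows, against 3.57% of all windows. Of the 5 windows that a ZEB1 site overlapped, 2 held an ISRE core, and at ISG15 its 2 matches, which share bases, lay inside the site. All 5 windows without a site, at IFIT1, IFIT3, IFIT5 and MX1, held at least one. A match describes the letters of the window and is not a measured binding site.

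Libraries of control cells held 3561455 and 3146228 counts in the consensus sites, those of 24 h 1886419 and 1799143, those of 48 h 1346179 and 1380070, and those of 72 h 1207987 and 1130706. The 2 libraries of each condition differed by no more than sampling noise (chi-square per degree of freedom 0.83 to 0.951, where chance alone gives about 1). Each pair is read here as a single sample (n = 1), so no value below has a check between cultures. The edgeR fit still took the 8 libraries as separate observations. Its spread came from differences within the pairs (coefficient of variation 0.0099), so its p-values are too small for a comparison of conditions. The 2 values given for a condition are its libraries, 95% intervals cover counting error only, and p-values compare libraries, not conditions. Site values are CPM scaled by TMM, a method that centres the sites on one another, so higher and lower mean relative to the other sites. Scaling instead to an estimate of the genome-wide background that the peak caller used, here called background scaling, moved the median log2 fold change of all tested sites to -0.91 at 24 h, -1.42 at 48 h and -1.50 at 72 h against control.

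The 39 sites were unevenly spread over the genes. IRF1 (chr5:132481609-132490773) had 10, ISG15 (chr1:1013497-1014540) had 8 and MX1 (chr21:41420558-41459214) had 5. IFIT3 (chr10:89327997-89340968) and IRF7 (chr11:612555-615950) had 4 each, IFIT2 (chr10:89302046-89309271) and STAT2 (chr12:56341597-56360107) had 3 each, and IFIT1 (chr10:89392623-89406487) had 2. For IFIT5 (chr10:89414568-89420997) there was none in the window, and the nearest site was 21374 bp away at IFIT1. The windows of IFIT2 and IFIT3 shared 2 sites, which were given to IFIT3 as the nearer gene. Of the 39 sites, 12 lay in the body of a listed gene, another 5 within 5 kb of it and 22 farther away, and 19 lay inside the body of some other gene. All 9 sites of the IFIT cluster were inside LIPA, which RefSeq annotates across most of it.

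ZEB1 signal at these sites was moderate. The median of the pooled signal per site was 14.2 CPM for untreated cells and 10.2, 15.3 and 17.0 CPM after 24, 48 and 72 h, beside medians over all sites of 10.6, 11.3, 11.1 and 10.7 CPM. Summed over its sites and divided by the length they cover, signal in control was densest at STAT2 (144 CPM per kb in both libraries) and next at IRF1 (99.5 and 94.2) and IFIT3 (83.4 and 81.8). It was lower at IFIT1 (59.8 and 63.1), IFIT2 (44.5 and 55.4), ISG15 (44.4 and 44.1), IRF7 (42.3 and 42.9) and MX1 (32.8 and 35.2). IFIT2, ISG15 and IRF7 had no clear order, since the 2 libraries of IFIT2 differed by more than its lower one differed from the other genes. At 72 h the densest were STAT2 (142 and 149 CPM per kb) and IFIT3 (136 and 137), followed by IRF7 (83.4 and 77.2) and IRF1 (77.5 and 71.5). The authors' peak lists, whose fold values are their own, had a peak at 36 of the 39 sites for untreated cells, and at 19, 15 and 20 of them after 24, 48 and 72 h. These are 92.3%, 48.7%, 38.5% and 51.3% of the sites, against 86.6%, 61.3%, 39.4% and 32.1% of all sites of the series.

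At 24 h, more of these sites were lower than higher relative to the other sites of the series. Of the 39, 35 had enough counts to be tested, and 18 were lower and 5 higher at 24 h than in control (edgeR quasi-likelihood test, Benjamini-Hochberg adjusted p under 0.05 over all 46436 tested sites). These are 51.4% and 14.3% of the 35, against 26.8% lower and 28.0% higher over all tested sites. At least 2-fold changes were seen at 9 lower sites and 1 higher site, beside 13.5% and 14.8% of all tested sites. The median log2 fold change was -0.66, against 0.02 over all tested sites. IRF1 alone supplied 8 of the lower sites, and without IRF1 10 of 25 were lower and 5 higher. With an assumed coefficient of variation of 0.2 between cultures, 11 were lower and 1 higher. Over all 46436 tested sites 6721 were lower and 7300 higher at that setting. DESeq2 called 11 lower and 3 higher, and without 24 h replicate 2 3 were higher. For DESeq2 and for omitted libraries no counts over all sites are given here.

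Lower and higher calls were closer in number at the later times. At 48 h, 5 sites were lower and 6 higher than in control by edgeR, beside 16.9% and 16.8% of all tested sites, with 2 and 3 of them at least 2-fold changed beside 7.55% and 10.5% of all. At 72 h, 5 were lower and 8 higher, beside 17.0% and 18.9%, and 3 and 6 were at least 2-fold changed, beside 8.55% and 12.2%. The medians were -0.07 at 48 h and 0.09 at 72 h. Without 48 h replicate 1, 3 sites were higher at 48 h, and without 72 h replicate 1, 5 were higher at 72 h. An assumed coefficient of variation of 0.2 left 2 lower and 2 higher at 48 h, and 3 lower and 5 higher at 72 h. Over all tested sites it left 2481 lower and 4030 higher at 48 h, and 2898 and 4758 at 72 h. DESeq2 called 3 higher at 48 h and 4 higher at 72 h. Under background scaling most sites of the series were lower than control, and so were nearly all of these. At 24, 48 and 72 h 32, 31 and 30 of the 35 were lower, beside 30183, 38774 and 38513 of all 46436 tested sites. The site upstream of IFIT3 was the 1 higher each time, beside 2819, 1718 and 1108 of all tested sites.

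The surroundings of the genes differed at 24 h. Among 152 tested sites between 20 and 220 kb from the genes, 39.5% were lower and 14.5% higher than control at 24 h, with a median log2 fold change of -0.34. Near IRF1 18 of 30 such sites were lower and 1 higher, near MX1 10 of 20 were lower and 3 higher, and near ISG15 5 of 27 were lower and 4 higher. Near STAT2 9 of 22 were lower and 3 higher, and near IRF7 17 of 44 were lower and 8 higher. Around the IFIT genes, whose neighbouring sites are largely shared, none of 7 was lower and 2 were higher near IFIT2, none of 8 was lower and 3 were higher near IFIT3, and 1 of 8 was lower and 3 were higher near IFIT1. Among the sites of the 9 genes, 4 of the 13 tested within 5 kb were lower at 24 h (30.8%, median log2 -0.04), against 14 of the 22 farther away (63.6%, median log2 -0.79). How much of the change at the genes belongs to their regions was not tested.

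**Figure D1:**
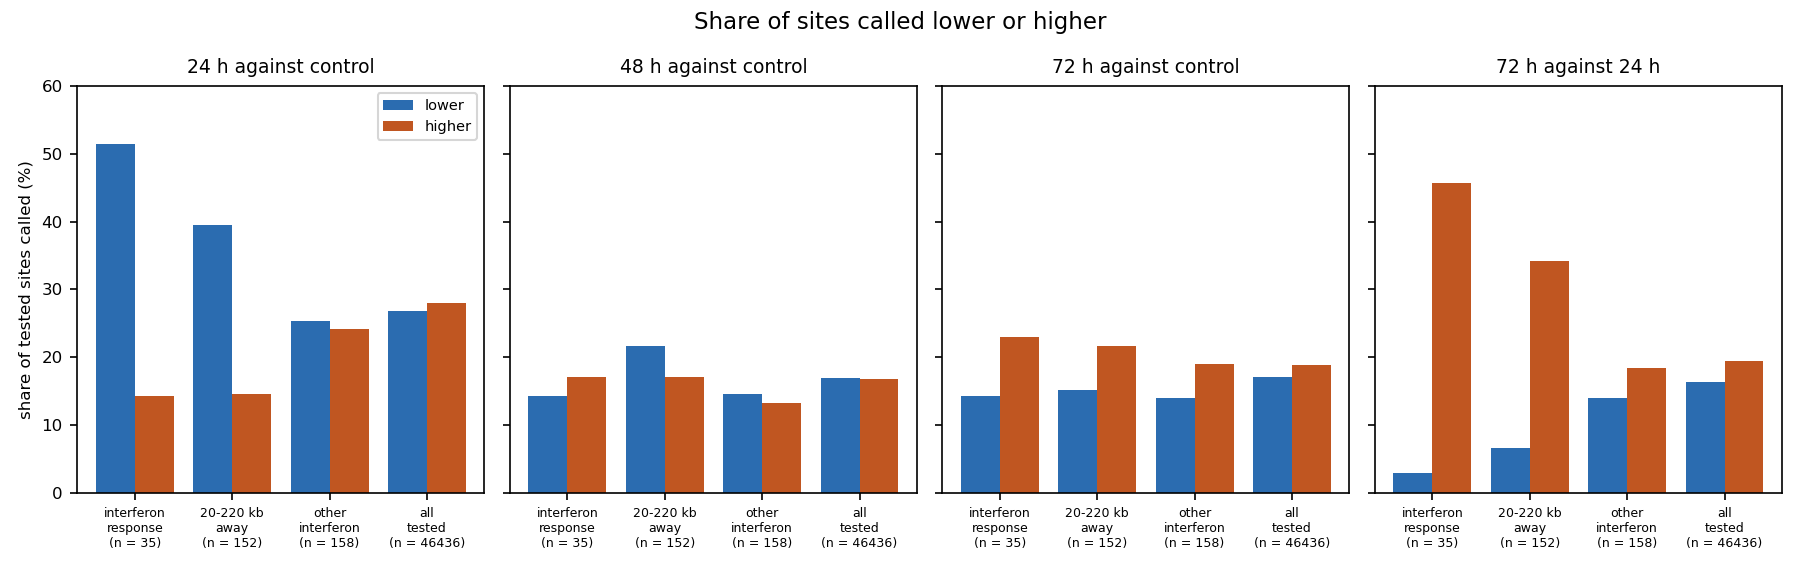
Share of tested sites called lower or higher by edgeR (percent, bars from 0) in each comparison, for the sites of the interferon response genes, sites 20 to 220 kb away from them, sites of other interferon pathway genes, and all tested sites. At 24 h against control 51.4% of the sites of the interferon response genes were lower, against 26.8% of all tested sites, and at 72 h against 24 h 45.7% were higher, against 19.4%. Changes are TMM-scaled. Under background scaling 1 of the 35 sites of these genes was higher than control at each time. Of all tested sites, 2819, 1718 and 1108 were higher at 24, 48 and 72 h under that scaling.

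IRF1, a transcription factor that drives antiviral and growth-restraining genes, was lower than control at 8 of its 10 sites at 24 h. The other 2 did not pass, and 26.8% of all tested sites were lower. The strongest site in control, inside the long non-coding gene CARINH and 23892 bp downstream of the IRF1 start (chr5:132466573-132467188), had 84.6 and 78.8 CPM in control, 35.9 and 30.7 CPM at 24 h, 44.8 and 44.6 CPM at 48 h and 29.4 and 37.0 CPM at 72 h. Every treated library was below both control libraries. The log2 fold change was -1.29 at 24 h (95% counting interval -1.59 to -1.01; edgeR adjusted p = 8.71e-21), -0.87 at 48 h and -1.31 at 72 h. The 48 h value did not pass with an assumed coefficient of variation of 0.2.

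The site with the highest mean signal, 7357 bp upstream of IRF1 (chr5:132497780-132498480), had 84.3 and 69.3 CPM in control, 43.6 and 54.4 CPM at 24 h, 44.0 and 43.8 CPM at 48 h and 47.6 and 49.1 CPM at 72 h. It was lower at each time without overlap of libraries (log2 -0.66, -0.81 and -0.68), and passed at none of them with an assumed coefficient of variation of 0.2. In between, the IRF1 promoter showed little difference on the TMM scale. The site that covers the promoter window (chr5:132490541-132491102) had 37.4 and 35.3 CPM in control, 34.9 and 36.1 CPM at 24 h, 34.0 and 31.7 CPM at 48 h and 32.9 and 30.5 CPM at 72 h. Its log2 fold changes of -0.04, -0.15 and -0.20 were not called, with intervals of -0.35 to 0.28 at 24 h and -0.60 to 0.19 at 72 h, and under background scaling it was lower by log2 -0.97 at 24 h.

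At 72 h 5 of the 10 IRF1 sites were higher than at 24 h and none was lower by edgeR. Over all tested sites 19.4% were higher and 16.4% lower. Of 30 tested sites 20 to 220 kb from IRF1, 8 were higher and none was lower. With an assumed coefficient of variation of 0.2, 3 of the 10 were higher. This comparison shares its 24 h libraries with that against control. A site 5432 bp upstream (chr5:132495890-132496520) had 54.7 and 59.0 CPM in control, 22.6 and 21.6 CPM at 24 h (log2 -1.36), 48.7 and 42.3 CPM at 48 h, and 60.6 and 51.8 CPM at 72 h (log2 -0.01, not called). One 639 bp downstream of the start (chr5:132490027-132490240) had 9.27 and 8.24 CPM in control, 3.08 and 4.31 CPM at 24 h, 5.41 and 11.3 CPM at 48 h, and 18.2 and 17.6 CPM at 72 h. It was lower at 24 h (log2 -1.24) and higher at 72 h (log2 1.02; not called under background scaling at log2 -0.48, nor with an assumed coefficient of variation of 0.2). In the direct test of 72 h against 24 h, these sites were higher by log2 1.35 and 2.26. The sites at chr5:132467716-132467825 (14.2 pooled CPM in control, 4.73 at 24 h and 15.7 at 72 h) and chr5:132496685-132497106 (25.6, 14.7 and 27.3 pooled CPM) were higher by log2 1.71 and 0.89, and that at chr5:132471916-132472234 by 0.48. Under background scaling the values of these 3 were 1.14, 0.32 and -0.09, of which 1.14 was called.

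**Figure D2:**
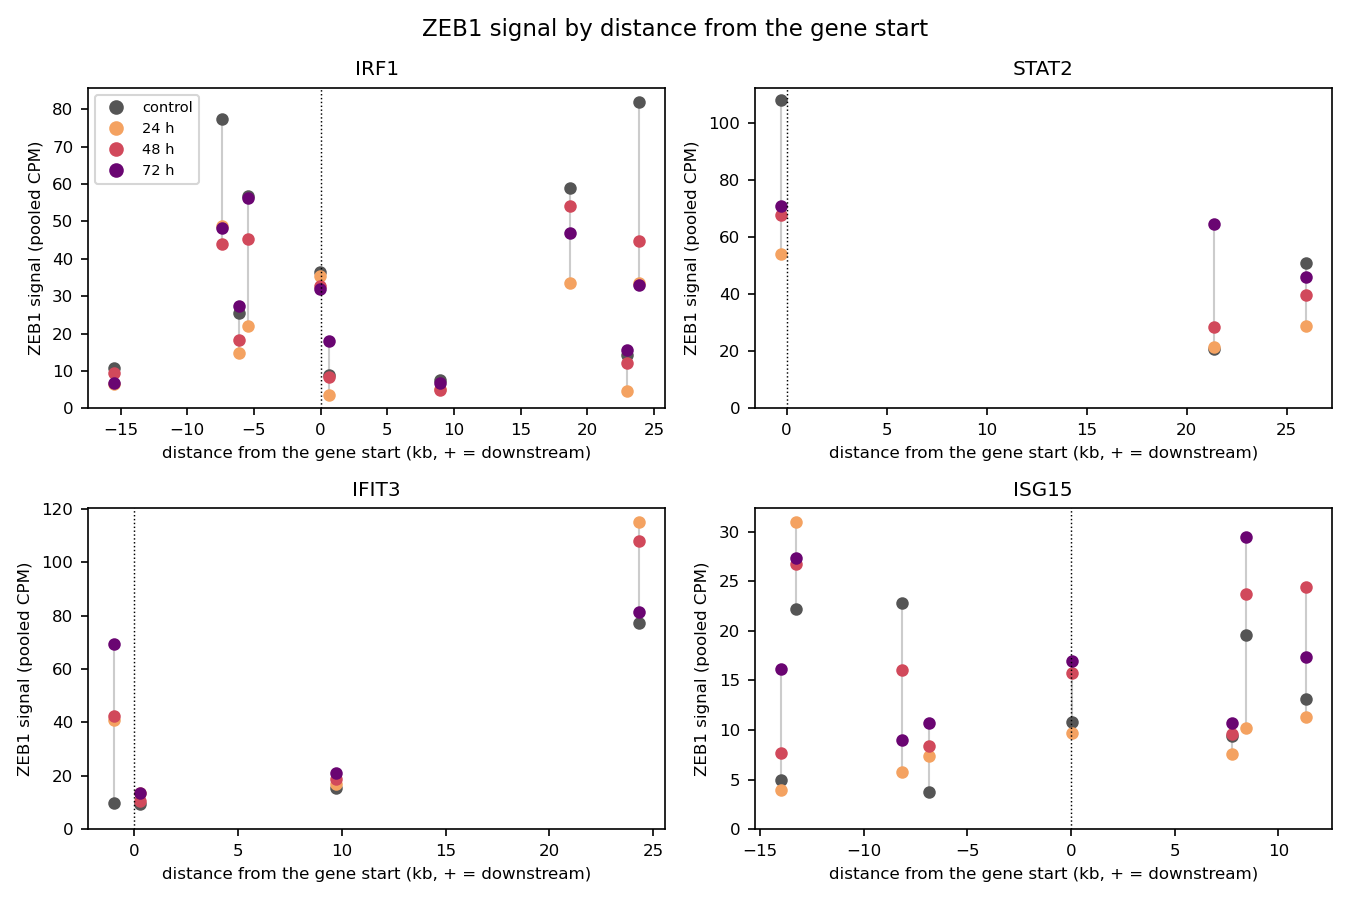
ZEB1 signal (pooled CPM, linear axis from 0) by distance of each site from the RefSeq gene start in kb, for IRF1, STAT2, IFIT3 and ISG15, with the 4 conditions in colour and a dotted line at the start. The IRF1 site at the start keeps 31.8 to 36.4 CPM in all conditions, while sites on both sides of it are lower at 24 h.

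IRF7, a regulator that amplifies interferon production, had more signal at its broad site relative to the other sites, and less under background scaling. This site (chr11:615199-616072, 874 bp wide) lay at one end of the gene, whose strand was not at hand. It had 28.1 and 27.7 CPM in control and 40.0 and 43.6 CPM at 24 h. At 48 h it had 50.2 and 62.7 CPM, and at 72 h 56.2 and 56.5 CPM. All treated libraries were above both control libraries. The log2 fold changes were 0.58 at 24 h, 1.02 at 48 h (0.70 to 1.34; edgeR adjusted p = 8.77e-09) and 1.01 at 72 h, but -0.35, -0.41 and -0.49 under background scaling. At 24 h the call was lost with an assumed coefficient of variation of 0.2.

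A narrower IRF7 site (chr11:614622-614857) dipped first, with 15.1 and 16.5 CPM in control, 4.62 and 5.39 CPM at 24 h, 16.2 and 20.4 CPM at 48 h and 34.6 and 25.9 CPM at 72 h. It was lower at 24 h (log2 -1.64) and higher at 72 h (log2 0.95, but -0.55 under background scaling and not called with an assumed coefficient of variation of 0.2). Its libraries at 72 h were above those at 24 h by log2 2.59 (1.86 to 3.42; edgeR adjusted p = 6.26e-13), which held under background scaling at log2 2.02. The site between these (chr11:615052-615131, 80 bp wide) had too few counts to be tested, with 5 and 3 counts in control, 0 and 0 counts at 24 h, 5 and 6 counts at 48 h and 10 and 7 counts at 72 h. The fourth, 12750 bp away next to the secretin gene SCT, was called at no time (log2 0.16, -0.02 and 0.28).

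STAT2, a signal transducer of the type I interferon receptor, had the site with the most signal of all 39 in control, at its start (chr12:56360117-56360677). The site lay 290 bp upstream, overlapped 241 bases of the promoter window and included the E-box shown above. Its libraries had 109 and 106 CPM in control, 61.1 and 46.3 CPM at 24 h, 61.0 and 74.0 CPM at 48 h and 71.8 and 69.4 CPM at 72 h. The signal was lower at each time without overlap, by log2 -0.997 at 24 h (-1.23 to -0.77; edgeR adjusted p = 1.12e-18), -0.67 at 48 h and -0.61 at 72 h. The later 2 calls did not pass with an assumed coefficient of variation of 0.2.

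Beyond the other end of STAT2, a site lay 125 bp from the cytokine gene IL23A and over its promoter window (chr12:56338659-56338858). It had 18.8 and 22.8 CPM in control, 24.1 and 18.9 CPM at 24 h, 30.9 and 26.4 CPM at 48 h and 58.8 and 70.3 CPM at 72 h. Libraries at 24 h overlapped control, and those at 72 h were higher by log2 1.64 (1.29 to 1.99; edgeR adjusted p = 9.39e-18), or 0.14 and not called under background scaling. The third STAT2 site, over the promoter window of the deadenylase gene PAN2 (chr12:56333912-56334395), was lower at 24 h (28.9 against 50.9 pooled CPM, log2 -0.81) and not called later (log2 -0.36 and -0.14).

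IFIT3, an RNA-binding partner of IFIT1, had a gain at 24 h at a site 966 bp upstream of its start (chr10:89326876-89327185). Libraries there had 10.7 and 8.57 CPM in control, 40.5 and 41.5 CPM at 24 h, 46.3 and 38.5 CPM at 48 h and 71.8 and 66.6 CPM at 72 h. Even the lowest treated library stood far above both controls, and the site stood at the 96.3 percentile of all sites at 72 h, against the 46.2 percentile in control. The log2 fold changes were 2.07 at 24 h (1.65 to 2.52; edgeR adjusted p = 1.15e-21), 2.12 at 48 h and 2.83 at 72 h. Under background scaling they were 1.14, 0.70 and 1.33, all still called higher. In the authors' peak lists the fold enrichment of the peak there was 7.40 for untreated cells and 14.01, 10.6 and 12.2 after 24, 48 and 72 h.

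Inside IFIT3 no site was called. A site 268 bp downstream of the start (chr10:89328117-89328414) had 7.53 and 11.9 CPM in control, 11.8 and 15.6 CPM at 24 h, 6.95 and 14.3 CPM at 48 h and 14.7 and 12 CPM at 72 h. Its libraries overlapped control at 24 and 48 h, and no fold change passed (log2 0.51, 0.16 and 0.49), although the 24 h value passed without control replicate 2 (log2 0.82) and with total counts in place of TMM (log2 0.61). A site in the gene body (chr10:89337592-89337804) was called at no time (log2 0.14, 0.29 and 0.46).

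The strongest IFIT3 site lay 11358 bp beyond the gene (chr10:89352060-89352592). Values there were 78.8 and 75.9 CPM in control, 114 and 115 CPM at 24 h, 117 and 99.7 CPM at 48 h and 77.0 and 86.1 CPM at 72 h. It was higher at 24 h (log2 0.57) and 48 h (log2 0.48), turning to -0.36 and -0.94 under background scaling, and its libraries overlapped control at 72 h. Neither gain passed with an assumed coefficient of variation of 0.2. Between 72 and 24 h it was the 1 site of the 35 called lower on the TMM scale, by log2 -0.50, and that call was lost without 72 h replicate 1 (log2 -0.40).

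IFIT1, IFIT2 and IFIT5 are other members of this RNA-binding family. An IFIT1 site 18228 bp upstream of the start (chr10:89374238-89374551) had 19.7 and 23.4 CPM in control, 12.8 and 11.9 CPM at 24 h, 10.8 and 7.55 CPM at 48 h and 13.0 and 6.48 CPM at 72 h. It was lower at each time (log2 -0.79, -1.22 and -1.12), with the 24 h call lost at an assumed coefficient of variation of 0.2, the 24 h and 72 h calls lost with DESeq2, and the 72 h call lost without 72 h replicate 2 (log2 -0.72). A site 571 bp into IFIT1 (chr10:89393119-89393269) had too few counts to be tested: 28 and 18 counts in control, 5 and 5 counts at 24 h, 5 and 5 counts at 48 h and 2 and 6 counts at 72 h.

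The 3 IFIT2 sites stayed below 11 CPM in every library. The one 6127 bp from the gene (chr10:89295842-89295996) was lower at 24 h (3.15 against 6.94 pooled CPM, log2 -1.12) and 48 h (1.53 against 6.94 pooled CPM, log2 -2.14), and not called at 72 h. The 48 h value rests on 2 and 2 counts, against 24 and 21 in control (interval -4.12 to -0.73). The 24 h call was lost with an assumed coefficient of variation of 0.2. This site passed the count filter through its control libraries alone, which favours lower calls. Inside the gene, the site at chr10:89302806-89302940 was lower at 24 h (3.15 against 8.02 pooled CPM, log2 -1.33), a call lost without control replicate 2 (log2 -1.03) or 24 h replicate 2 (log2 -1.16). The site chr10:89302105-89302237 lay at one end of IFIT2, whose strand was not at hand. It was not tested, with 19 and 20 counts in control and 9 and 7 counts at 24 h. Counts there were 3 and 6 at 48 h and 3 and 5 at 72 h. DESeq2 called neither of the tested IFIT2 sites.

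ISG15 lies near the start of chromosome 1 between the genes HES4 and AGRN, and of its 8 sites 1 was inside HES4 and 3 were inside AGRN. The site over the ISG15 promoter (chr1:1013369-1013708), which includes the ISRE cores shown above, had 8.69 and 13.2 CPM in control, 10.8 and 8.62 CPM at 24 h, 14.7 and 16.6 CPM at 48 h and 16.4 and 17.6 CPM at 72 h. No comparison with control passed (log2 -0.15, 0.53 and 0.65), while without control replicate 2 the 48 h (log2 0.84) and 72 h (log2 0.95) values did. Under background scaling it was lower at all 3 times.

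The largest ISG15 loss was 8172 bp upstream (chr1:1005165-1005484), with 20.9 and 25.1 CPM in control, 6.16 and 5.39 CPM at 24 h, 17.8 and 14.3 CPM at 48 h and 9.52 and 8.33 CPM at 72 h. It was lower at 24 h (log2 -1.97, -2.70 to -1.33; edgeR adjusted p = 3.56e-11) and 72 h (log2 -1.35), and did not pass at 48 h (log2 -0.51). The strongest site, over the promoter window of the Notch target gene HES4 (chr1:999868-1000592), was higher at 24 h (31.0 against 22.2 pooled CPM, log2 0.48, but -0.45 under background scaling). That call was lost with DESeq2 and without control replicate 2 (log2 0.37), 24 h replicate 1 (log2 0.45) or 24 h replicate 2 (log2 0.50). Gains of log2 1.69 at 72 h at a site inside HES4 (chr1:999426-999564; 16.1 against 4.93 pooled CPM) and of 1.52 at chr1:1006586-1006717 (10.7 against 3.70 pooled CPM) were 0.20 and 0.03, not called, under background scaling. Both sites passed the count filter through treated libraries alone, which favours higher calls. Inside AGRN, chr1:1021729-1022108 was lower at 24 h (log2 -0.93) and higher at 72 h (0.59, but -0.91 under background scaling). Neither call passed with an assumed coefficient of variation of 0.2. From 24 to 72 h it was higher by log2 1.52, called also at that coefficient and under background scaling (0.95). At chr1:1024721-1024917 the 48 h gain (log2 0.895) turned to -0.52 under background scaling, and chr1:1021183-1021358 was called at no time.

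ISG15 and IRF7 both lie near the start of their chromosomes. Of the 11 tested ISG15 and IRF7 sites, 3 were higher and none lower at 48 h by edgeR, and 5 were higher and 1 lower at 72 h. Over 2513 other tested sites in the first 5 Mb of a chromosome, 27.6% were higher and 13.9% lower at 48 h, and 28.8% and 13.1% at 72 h. The role of this position in the values of ISG15 and IRF7 was not tested.

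MX1, an interferon-induced GTPase, had weak sites at its promoters, and 2 of its sites, both beyond the gene, were lower at 24 h. At the upstream promoter window (chr21:41420228-41420436) counts were too low to test, with 9 and 12 counts in control, 6 and 11 counts at 24 h, 5 and 7 counts at 48 h and 8 and 7 counts at 72 h. The site over the window with the E-box (chr21:41426053-41426385) had 6.95 and 9.23 CPM in control, 9.24 and 6.47 CPM at 24 h, 14.7 and 13.6 CPM at 48 h and 10.4 and 7.40 CPM at 72 h. Against control it was called at 48 h (log2 0.81, but -0.60 and not called under background scaling, nor called with an assumed coefficient of variation of 0.2). It was not called at 24 or 72 h. The 3 sites beyond the gene end lay inside TMPRSS2, a serine protease gene. The strongest (chr21:41467135-41467668) was lower at 24 h (12.1 against 21.9 pooled CPM, log2 -0.85, lost with DESeq2 and with an assumed coefficient of variation of 0.2). Farther on, chr21:41477716-41477972 was lower at 24 h (2.89 against 11.6 pooled CPM, log2 -1.98, -3.06 to -1.08), and neither was called at 48 or 72 h. The third, at chr21:41478703-41478888, passed in no comparison.

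**Figure D3:**
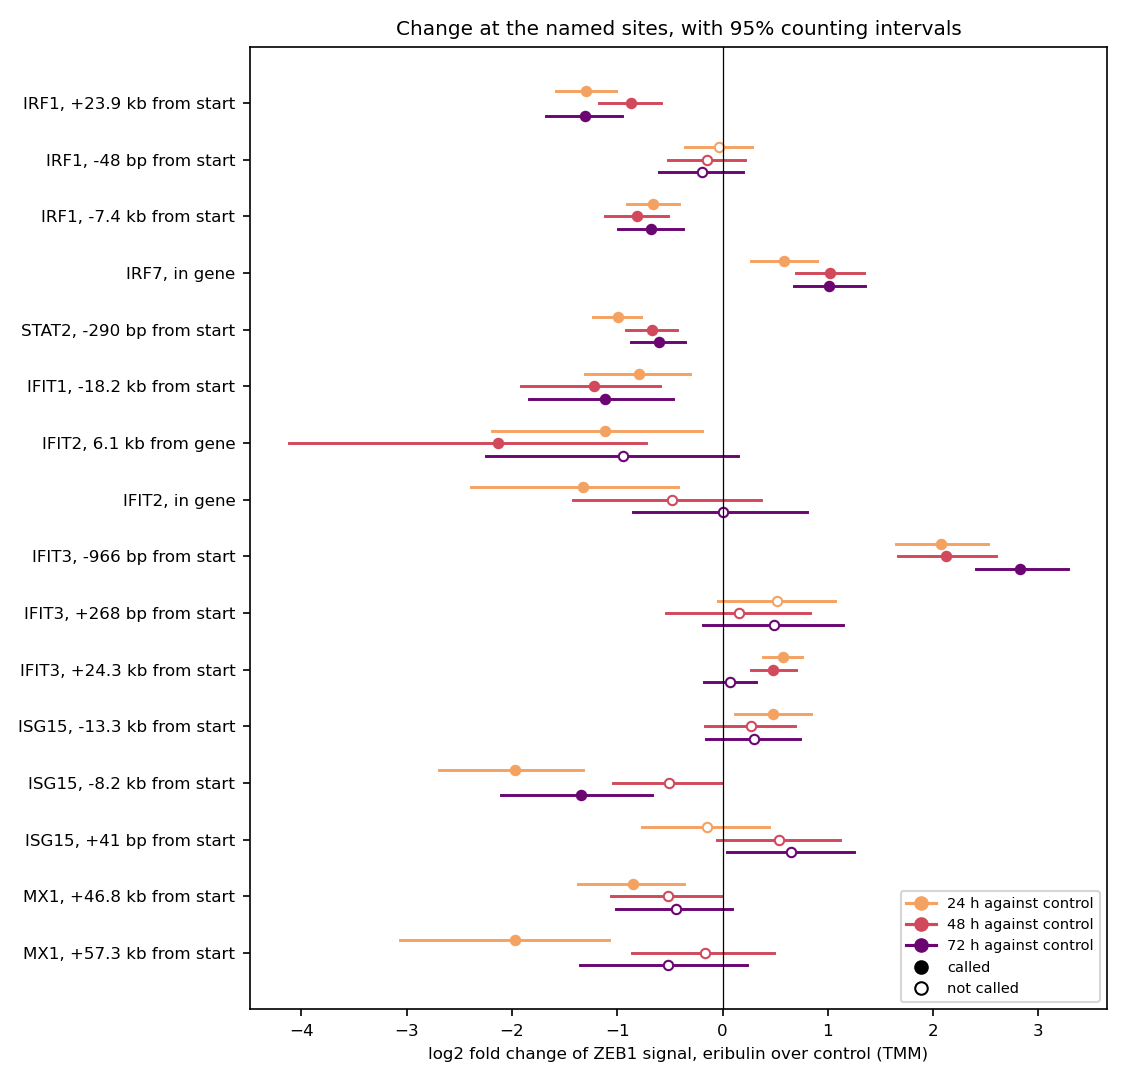
Log2 fold change of ZEB1 signal against control, on the TMM scale, at 16 tested sites (for each gene those with the highest mean signal, nearest the start and with the smallest p), with 95% counting intervals, for 24, 48 and 72 h. Filled points were called by edgeR and open points were not. The IFIT3 site 966 bp upstream is higher at every time, the STAT2 promoter site is lower at every time, and the IRF1 promoter site (48 bp upstream) runs from -0.04 to -0.20. Background scaling turns the gains at IRF7, at ISG15 and at the IFIT3 site beyond the gene to losses.

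The change between 24 and 72 h was tested directly. Of the 35, 16 were higher and 1 lower at 72 h than at 24 h (edgeR adjusted p under 0.05), beside 19.4% higher and 16.4% lower over all tested sites. At least 2-fold gains were seen at 9 and no loss reached that size, beside 12.1% and 9.26% of all tested sites. The median log2 fold change was 0.49, against -0.01 over all tested sites and 0.56 over the 152 sites between 20 and 220 kb away. All 3 STAT2 sites were higher, as were 5 at IRF1, 3 at ISG15, 2 at IRF7, and 1 each at IFIT2, IFIT3 and MX1. With an assumed coefficient of variation of 0.2, 7 were higher and none lower, beside 4376 and 2465 of all 46436 tested sites. DESeq2 called 8 higher. Total counts in place of TMM left 11 higher. Under background scaling, where the median of all tested sites was -0.58, 7 were higher and 6 lower. Of all 46436 tested sites 3544 were higher and 20163 lower under that scaling. This comparison shares its 24 h libraries with that of 24 h against control.

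Calls at sites of the wider pathway were near the shares over all tested sites. A list of 65 other interferon pathway genes, from the receptor chains to the OAS, GBP and IFITM effectors, had 158 tested sites linked to 56 of them within 20 kb. At 24 h 40 (25.3%) were lower and 38 (24.1%) higher than control, at 48 h 23 and 21, and at 72 h 22 and 30 (edgeR). Medians were -0.01, -0.12 and -0.02, and at 72 h against 24 h 22 were lower and 29 higher. The time course most like that of the upstream IFIT3 site, by the Euclidean distance over the 3 log2 fold changes against control, was at TRIM25, a ubiquitin ligase of RNA sensing (chr17:56888180-56888302; log2 1.74, 2.38 and 2.75; distance 0.43), from 2.00 CPM in control. Next came sites of EIF2AK2, the RNA-activated kinase PKR (chr2:37085845-37086149; log2 1.25, 1.48 and 1.42; distance 1.75), and of the receptor kinase gene TYK2 (chr19:10376280-10376579; log2 0.46, not called, then 2.85 and 2.42; distance 1.81). The TYK2 site had 1.7 pooled CPM in control and 2.37 at 24 h. These sites were picked from the 158 for their likeness, so their gains follow from the choice. Those of TRIM25 and TYK2 passed the count filter through treated libraries alone. The distances rest on 4 conditions that share 1 control.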

How the data were processed

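Per the labels' protocols, ZEB1 was profiled with a CUT&RUN kit; the labels also mention Tn5, an enzyme of a related method. The submitters' processing notes name, without roles, MACS2 2.1.1, featureCounts, Bowtie2 2.2.6, cutadapt 2.4 and the hg38 build. The deposited count table holds unnormalized counts per site and library. The deposited peak lists, whose peak names carry replicate 1, give a fold enrichment (a ratio), -log10 p-values and a score per peak.

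Sites were compared with edgeR 4.0.16 (R 4.3.3): TMM, filterByExpr, a robust quasi-likelihood fit of all 8 ZEB1 libraries with condition as the only term, and Benjamini-Hochberg adjustment over 46436 tested sites. The test was also run on counts simulated for control and 72 h with sampling noise alone. That run cannot show false calls from variation between cultures. The 95% intervals are exact binomial (Clopper-Pearson), from counts summed over both libraries. Background scaling used the most frequent local background among the peaks of each condition, solved from the peak caller's fold and p columns. At 48 and 72 h lower values were also solved (1% quantile 0.001, against 0.60 and 0.57). Only 335 of 17910 peaks lay at the value used for 72 h. Replicate 2 was given the value of its condition in proportion to total counts.

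Named sites are, for each gene, that with the highest mean CPM, that nearest the start (either end where the strand was not at hand) and that with the smallest p against control; other sites with values were chosen after their values were seen. Genes, lists and rules were chosen with earlier results of these data known. Alternatives tried were other scalings, DESeq2 1.42.0, no count filter, a replicate block, an assumed coefficient of variation, omission of each library and a 5 kb window.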

Additional observations from a re-analysis of the deposited data

Results flagged for a closer look

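At 7 of the named sites, the signal of the 72 h libraries differed from that of the 24 h libraries in the direct edgeR test. Values are log2 fold changes, and each time is 1 sample. The upstream IFIT3 site was higher at 72 h than at 24 h by 0.76, and was not called with an assumed coefficient of variation of 0.2 or under background scaling (0.19). At the STAT2 promoter site the signal was higher at 72 h than at 24 h by 0.39, but lower by -0.18 under background scaling, and the MX1-linked site at chr21:41477716-41477972 was higher at 72 h than at 24 h by 1.46 (0.89 under background scaling). The broad IRF7 site was higher by 0.43 (-0.14 under background scaling) and the ISG15 promoter site by 0.80 (0.23). The IFIT2 site at chr10:89302806-89302940 was higher by 1.33 (0.77). The IFIT3 site beyond the gene was lower at 72 h than at 24 h, at -0.50 (-1.07 under background scaling). With an assumed coefficient of variation of 0.2, none of the 7 was called, and calls at all but the upstream IFIT3 site were lost when at least one library was left out.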

How the results depend on the processing

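Counts of sites at 24 h against control were 18 lower and 5 higher, and became 32 and 1 with background scaling, 11 and 3 with DESeq2, 11 and 1 if cultures varied by an assumed coefficient of 0.2, and 4 and 2 of 13 tested sites with a 5 kb window. At 48 h, 5 lower and 6 higher became 31 and 1 with background scaling, 2 and 2 with the assumed coefficient, and 1 and 3 with the 5 kb window, and DESeq2 gave 3 higher. At 72 h, 5 lower and 8 higher became 30 and 1, 3 and 5, and 1 and 5 in the same order, and DESeq2 gave 4 higher. At 72 h against 24 h, 1 lower and 16 higher became 6 and 7 with background scaling, 0 and 7 with the assumed coefficient, and 0 and 8 with the 5 kb window, and DESeq2 gave 8 higher. Total counts in place of TMM gave 1 lower and 11 higher in that comparison. Over all 46436 tested sites, background scaling gave 30183 lower and 2819 higher at 24 h, and 38774 and 1718 at 48 h. It gave 38513 and 1108 at 72 h, and 20163 and 3544 at 72 h against 24 h. The assumed coefficient gave 6721 and 7300 at 24 h, and 2481 and 4030 at 48 h. It gave 2898 and 4758 at 72 h, and 2465 and 4376 at 72 h against 24 h. The causes were not tested; within 5 kb the share lower at 24 h was 30.8%, against 63.6% beyond. Omitting 1 library at a time gave 15 to 18 lower and 3 to 4 higher at 24 h, 4 to 5 and 3 to 7 at 48 h, 4 to 6 and 5 to 9 at 72 h, and 0 to 1 and 12 to 13 at 72 h against 24 h.

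Background scaling reversed 16 values at named sites, meaning that the sign changed and the value was called on either scale. They were, at ISG15, the HES4 promoter site (-0.45, -1.15 and -1.21 at 24, 48 and 72 h) and the ISG15 promoter site (-0.88 and -0.85 at 48 and 72 h). Further ones were the IFIT2 site inside the gene (-1.49 at 72 h) and the IFIT3 site downstream of the start (-1.26 and -1.01 at 48 and 72 h). Others were the IFIT3 site beyond the gene (-0.36, -0.94 and -1.43) and the broad IRF7 site (-0.35, -0.41 and -0.49, and -0.14 at 72 h against 24 h). The last was the STAT2 promoter site at 72 h against 24 h (-0.18). Neither value of 72 h against 24 h was called under background scaling. Not called on the TMM scale were the ISG15 promoter, IFIT2 and downstream IFIT3 values. The same held for the HES4 promoter site at 48 and 72 h, and for the IFIT3 site beyond the gene at 72 h. RLE factors, no count filter and the replicate block changed no call at the 64 values of named sites.

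With the replicate number as a block, 17 sites were lower and 5 higher at 24 h and the other counts were unchanged. Library differences within conditions did not correlate across conditions (-0.005 to 0.014). As these differences were no larger than sampling noise, that cannot show whether equal numbers share a culture or a batch. Depth limits the 4 untested sites, and counts per library were lowest at 72 h.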
